A study of Mus musculus with 4 samples.

Results

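Plasma cell nuclei were a small population of the inguinal fat pad: 198 of 50067 kept nuclei, or 0.395%. A nucleus counted as a member when it held at least 3 UMIs (unique molecular identifiers, 1 per captured RNA molecule) summed over the immunoglobulin genes Igha, Jchain, Iglc1, Ighg2b and Ighg3, and at least 1 UMI of Eaf2, Fam46c, Pou2af1 or Cacna1e. Fewer than 3 of the B cell genes Bank1, Pax5, Ms4a1, Cr2, Cd22, Fcer2a and Ighd could be detected. All kept nuclei had at least 300 detected genes and at most 10% mitochondrial UMIs. The rule reads 16 genes, and their values among the members are a description of the selection, with no test.

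Plasma cells are the end stage of the B cell lineage and secrete antibody in bulk. Their differentiation switches off the B cell program, which is held by factors such as PAX5 and BACH2, and is driven by IRF4, BLIMP-1 (encoded by Prdm1) and XBP1, which enlarge the endoplasmic reticulum (ER). IgA, the antibody class of mucosal surfaces and of milk, is secreted as units joined by the J chain, and the inguinal pad of the mouse contains mammary gland.

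The study applied single-nucleus RNA sequencing to inguinal white adipose tissue, the subcutaneous fat of the groin, of C57BL/6N mice aged 6 months. There were 4 libraries, 2 with a wild-type label and 2 with a PTRF knockout label, each from a mouse of its own by the titles. PTRF, now called cavin-1 and encoded by Cavin1, is a caveola protein that adipocytes make in quantity. The labels give no promoter, allele or sex for the knockout. Values for 4 libraries are given below in this order: the library labelled wild type 1, then wild type 2, then knockout 1, then knockout 2.

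The targeted gene went against the labels. Cavin1 (chr11:100956733-100970887, minus strand, GRCm38) had 40, 9, 730 and 1759 UMIs over the kept nuclei, or 1.81, 1.04, 53.9 and 50.5 CPM (UMIs scaled to the library total), so both libraries labelled knockout were the richer in Cavin1, and the genotype in the deposited names of the data is the opposite of the label. Directions between labels below therefore refer to labels that Cavin1 contradicts. Within the plasma cell nuclei Cavin1 gave 0, 0, 0 and 6 UMIs. The libraries held 15528, 6664, 11988 and 15887 kept nuclei with a median of 1022, 933.5, 844.5 and 1401 UMIs. Between 47 and 143 kept barcodes recurred in any pair of libraries, and no barcode was a plasma cell nucleus in both libraries of a pair.

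Nearly all plasma cell nuclei came from the libraries labelled knockout. The members numbered 9, 5, 51 and 133 in library order. Their shares of kept nuclei were 0.0580% (exact binomial 95% interval 0.0265 to 0.110), 0.0750% (0.0244 to 0.175), 0.425% (0.317 to 0.559) and 0.837% (0.701 to 0.991), where the intervals cover counting error only. The mean share was 0.0665% ± 0.0121 (SD, n = 2) under the wild-type label and 0.631% ± 0.291 (SD, n = 2) under the knockout label, a ratio of 9.49. The groups did not overlap. Stricter rules for members (10 or more immunoglobulin UMIs, at least 1% of UMIs, no Igha in the sum, at least 2 of the 4 further genes) gave differences of 0.327, 0.292, 0.337 and 0.361 percentage points against 0.565, and leaving out the library labelled knockout 2 gave 0.359. A two-sided exact permutation test over the 4 libraries gave p = 0.333, the smallest value that 2 against 2 libraries allow, so the design cannot pass the threshold.

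The share of B nuclei differed between the libraries too. B nuclei, taken as those with at least 3 of the 7 B cell genes, numbered 752, 183, 541 and 2176, or 4.84%, 2.75%, 4.51% and 13.7% of kept nuclei. For every 100 B nuclei there were 1.20, 2.73, 9.43 and 6.11 plasma cell nuclei, and both libraries labelled knockout were again above both labelled wild type. Depth differed as well, and its part in the share was partly measured by thinning each nucleus to 500 UMIs: 4, 1, 31 and 88 nuclei then met the rule. Under the knockout label, the library with the higher share was also the deeper.

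**Figure D1:**
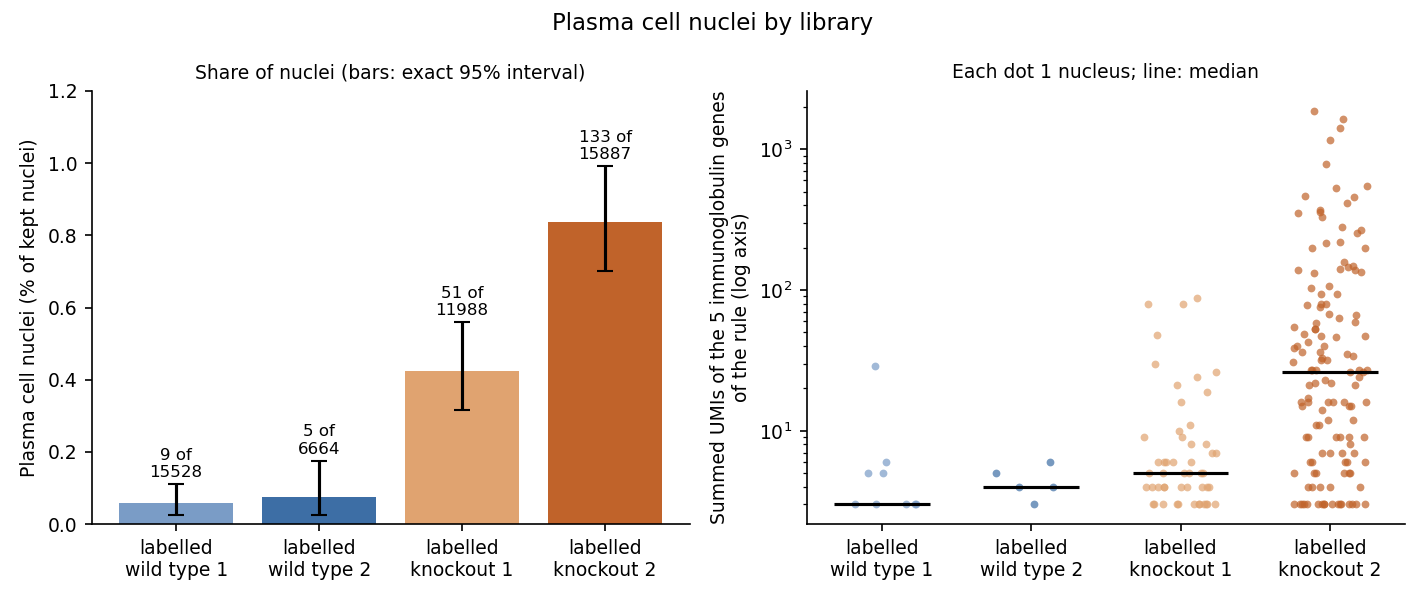
Left, plasma cell nuclei as a percentage of kept nuclei in each library, with exact 95% binomial intervals as bars and the counts printed above. Right, the summed UMIs of the 5 immunoglobulin genes of the rule in each of the 198 nuclei (log axis), with the median as a line at 3, 4, 5 and 26 UMIs from left to right.

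The immunoglobulin content of the members differed widely between libraries. The summed count that the rule reads had a median of 3, 4, 5 and 26 UMIs and a highest value of 29, 6, 87 and 1874. At least 10 such UMIs were present in 1, 0, 12 and 89 members. As a share of all UMIs in a nucleus, the median was 0.346%, 0.126%, 0.576% and 1.41%, and 1 nucleus of the library labelled knockout 2 reached 30.7%. The plot of UMIs per nucleus shows the library labelled knockout 2 spread over almost 3 orders of magnitude, while most members elsewhere sat near the threshold.

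At the threshold itself, 5, 1, 12 and 17 members had exactly 3 immunoglobulin UMIs, and 6, 4, 17 and 41 nuclei that otherwise met the rule had 2. In the library labelled knockout 2, Xbp1 was detected in 0 of the 17 members at 3 UMIs and in 2 of the 41 nuclei at 2 UMIs. A further 20, 1, 30 and 95 nuclei had at least 3 immunoglobulin UMIs but none of the 4 further genes.

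RNA of Igha was also found outside the members. In adipocyte nuclei, which do not make antibody and were taken as nuclei with at least 3 of 6 adipocyte markers, Igha was detected in 0.160%, 0.183%, 1.78% and 12.4%. Among the members the shares were 33.3%, 60%, 92.2% and 91.7%. Median depth was 2323.5, 1949, 1603 and 3968 UMIs in adipocyte nuclei and 1734, 3178, 972 and 2150 in members. At least 3 Igha UMIs, the rule's minimum, were present in 0, 0, 1 and 14 adipocyte nuclei, so a count at the minimum also occurred in nuclei of another cell type.

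The label of the nuclei was checked on genes that the rule does not read. Median depth was 804.5, 832, 746 and 1471 UMIs in B nuclei, below that of members in every library. Detection shares of members set against B nuclei, here and below, are not corrected for this depth. For the library labelled knockout 2, Xbp1 was detected in 55 of 133 members (41.4%), against 5.38% of B nuclei and 8.60% of all other nuclei. Irf4 was detected there in 24.1% of members against 4.55% of B nuclei, and Derl3, a component of ER-associated degradation, in 12.0% against 0%. Sdc1, which encodes the plasma cell surface marker CD138, was detected in 12.8% against 0.781%. Irf4, Derl3 and Sdc1 are set here against B nuclei alone, so these shares do not separate members from all other nuclei. In this library 20.3% of members also carried 2 or more markers of luminal epithelial cells. For the library labelled knockout 1, Xbp1 was detected in 8 of 51 members (15.7%), Irf4 in 1, Derl3 in 1 and Sdc1 in 0. Its members held 10 Xbp1 UMIs, where 2.02 would be expected at the level of its B nuclei. Beyond Xbp1, these genes were nearly absent there, so the check was weak for the 51 members.

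The check was mixed for the 14 members of the libraries labelled wild type. They gave 0 UMIs of Xbp1, Irf4 and Derl3 in both libraries, and their summed depth of 16698 and 16731 UMIs allows up to 179.7 and 179.3 CPM at 3 counts. Xbp1 stood at 186 and 470 CPM in the members of the libraries labelled knockout, just above and well above those limits. Prdm1 was detected in 1 and 3 of these nuclei and Sdc1 in 0 and 2. These 14 nuclei are plasma cell nuclei by the rule only.

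IgA was the leading antibody class of the nuclei under the knockout label. The heavy chain constant gene with most UMIs was Igha (chr12:113254830-113260236, minus strand) in 3 of 9, 2 of 5, 47 of 51 and 121 of 133 members. For the libraries labelled knockout this was 92.2% (exact 95% interval 81.1 to 97.8) and 91.0% (84.8 to 95.3). The 2 shares differed by less than their intervals. Since Igha, Ighg2b and Ighg3 are read by the rule, these shares describe the selection.

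Other classes were rare there and more frequent among the few nuclei under the wild-type label. Ighg2b led in 5 of the 9 nuclei labelled wild type 1, in 0 of 5 labelled wild type 2, and in 3 and 4 nuclei under the knockout label. There were also 3 nuclei led by Ighm and 1 led by Ighg3 in the library labelled knockout 2. Ighg1 and Ighe led in 1 nucleus each of those labelled wild type 2, where 1 nucleus was tied. Over summed heavy chain UMIs, Igha made up 61.1%, 60%, 97.4% and 95.3%.

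**Figure D2:**
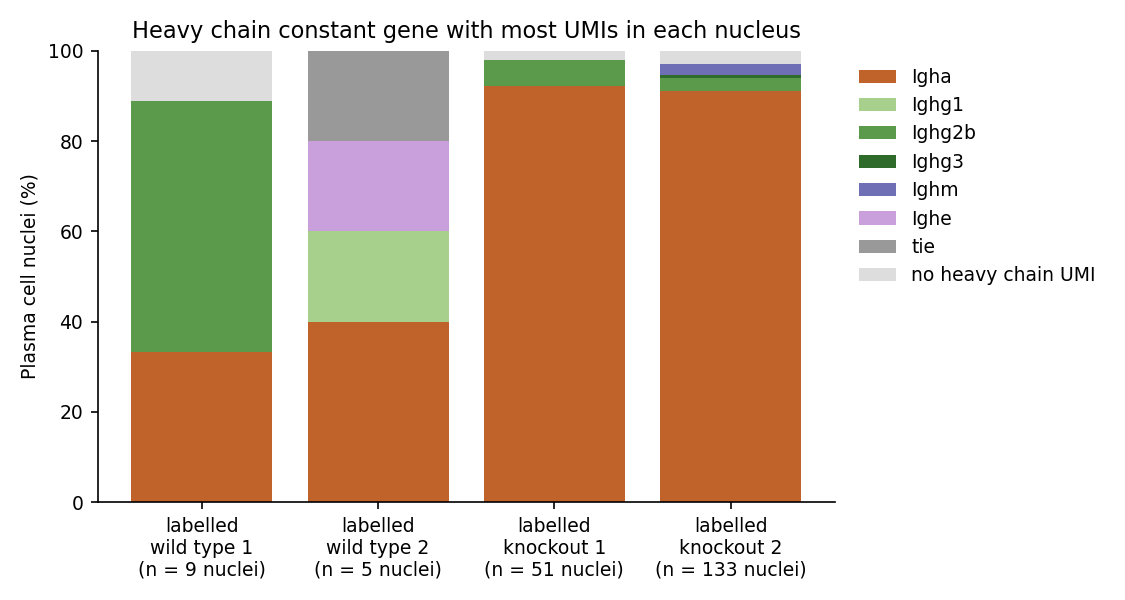
Percentage of plasma cell nuclei in each library by the heavy chain constant gene with most UMIs, with the number of nuclei below each bar. Igha leads in 92.2% and 91.0% of the nuclei labelled knockout 1 and 2, and in 3 of 9 and 2 of 5 under the wild-type label.

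Jchain (chr5:88519809-88527891, minus strand), whose product joins IgA and IgM units, was detected in 4 of 9, 3 of 5, 36 of 51 and 109 of 133 members. Its UMIs in members were 7, 10, 129 and 2847, or 10.6%, 24.4%, 40.2% and 77.7% of all its UMIs in kept nuclei. For Igha the members held 50%, 45%, 51.5% and 83.4% of the library's UMIs. The library labelled knockout 2 thus had the highest part of both transcripts inside the members.

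Among light chains, only lambda constant genes could be read. Any of Iglc1, Iglc2 and Iglc3 was detected in 0, 1, 9 and 54 members. Igkc, the kappa constant gene (chr6:70726435-70726966, plus strand), had 0 UMIs in every barcode of every library. The lincRNA Gm30211 (chr6:70719074-70740554, plus strand) encloses Igkc and the Igkj genes on the same strand, with 0 bp of Igkc in its exons. Gm30211, which was chosen after its values were seen, gave 2, 2, 14 and 325 UMIs in members and was detected in 78 of the 133 labelled knockout 2 (58.6%), against 22.4% of its B nuclei and 1.33% of its other nuclei. Which transcripts these UMIs came from was not tested.

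Variable genes gave few UMIs. Among members labelled knockout 2, genes of the heavy chain family Ighv summed to 44 UMIs over the members, the kappa family Igkv to 66 and the lambda family Iglv to 28. At least 2 Igkv UMIs were present in 16 of its nuclei, and 10 different genes led in them, with Igkv1-110 in 4 nuclei as the commonest. The other libraries had 0 to 4 UMIs per family, too few to describe their use.

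Against B nuclei of the same libraries, plasma cell nuclei were higher in ER and secretory genes and lower in B cell identity genes. Counts were summed per library and class and compared with edgeR with the library as a block, where a positive log2 difference is higher in plasma cell nuclei. Of 5782 genes tested, 208 were called (3.6%): 57 higher (0.986%) and 151 lower (2.61%), and 53 and 144 of these are not read by the rule. The median log2 difference over all genes was -0.21. Both classes were picked from the same nuclei by marker genes, so a gene that accompanies those markers differs by the selection too.

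The ER and secretory list had 39 genes, of which 22 passed the filter on low counts. In it 7 were called higher and 0 lower, 20 of the 22 lay above 0, and the list median was 1.11 beside -0.21 for all genes. Txndc5, an ER disulfide isomerase, gave 5, 0, 14 and 302 UMIs and was detected in 22.2%, 0%, 25.5% and 55.6% of members, against 5.59%, 2.19%, 3.33% and 8.59% of B nuclei. Its log2 difference was 2.60 (SE 0.57, adjusted p = 5.83e-04). It was higher in 3 of 4 libraries, with no UMI in the 5 nuclei labelled wild type 2.

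Hsp90b1, the ER chaperone GRP94, had 18, 9, 52 and 492 UMIs in members and was detected in 44.4%, 40%, 49.0% and 74.4% of them, against 16.2%, 14.8%, 15.5% and 34.0% of B nuclei. It was higher in all 4 libraries (log2 1.62, SE 0.46, adjusted p = 0.0186). Edem1, which hands misfolded glycoproteins to degradation, had 3, 12, 13 and 174 UMIs and was also higher in all 4 (2.47, SE 0.51, adjusted p = 1.82e-04). Of the 7 called genes, Edem1 alone stayed called when each library was left out in turn. With no count filter all 7 lost their call, and 1 of the 39 list genes was called.

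The other called members have roles along the same secretory route. Tram2 belongs to the family of translocon-associated proteins (log2 2.70, SE 0.58), Sec24d is a cargo adaptor of the COPII vesicle coat (2.34, SE 0.56), Herpud1 takes part in ER-associated degradation (2.01, SE 0.64) and Txndc11 is an ER thioredoxin (1.98, SE 0.48). Sec24d and Herpud1 were higher in 3 of 4 libraries. Herpud1 was near the threshold (adjusted p = 0.048), and DESeq2 did not call it. Hspa5, the chaperone BiP, was not called, at 0.48 (SE 0.53, adjusted p = 0.844), and its detection in members was 11.1%, 40%, 9.80% and 45.1% against 11.4%, 6.56%, 5.55% and 22.1% of B nuclei. Pdia4 (1.23), Dnajb11 (1.22) and Edem2 (2.04, adjusted p = 0.0593) were above 0 without a call.

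Promoters of the called ER genes are shown because XBP1 and ATF6 are known to act through short ER stress motifs. The 250 bases before each RefSeq start (GRCm38.p6) were searched on both strands for ERSE (CCAAT and CCACG with 9 free bases between), ERSE-II (ATTGG and CCACG with 1 free base between) and the core of UPRE (TGACGTGG). ERSE is held by 0.113%, ERSE-II by 0.0304% and the UPRE core by 0.563% of 32851 promoters, with no overlap of letters between the matches shown. At least 1 motif was present in 5 of the 7 called genes, in 5 of the 22 other list genes with a promoter in the table, and in 0.697% of all promoters. Those 22 include genes that did not pass the filter on low counts and were not tested. The last share is per promoter, while a gene can have more than 1. A match is a description of letters, not of a bound site. Capitals mark the matches.
Hsp90b1 (chr10:86705510-86705694, minus strand, ERSE on each strand): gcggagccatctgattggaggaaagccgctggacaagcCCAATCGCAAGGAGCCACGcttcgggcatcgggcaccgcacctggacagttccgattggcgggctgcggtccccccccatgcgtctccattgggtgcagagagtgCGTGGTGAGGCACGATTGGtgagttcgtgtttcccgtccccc
Herpud1 (chr8:94386179-94386428, plus strand, ERSE-II): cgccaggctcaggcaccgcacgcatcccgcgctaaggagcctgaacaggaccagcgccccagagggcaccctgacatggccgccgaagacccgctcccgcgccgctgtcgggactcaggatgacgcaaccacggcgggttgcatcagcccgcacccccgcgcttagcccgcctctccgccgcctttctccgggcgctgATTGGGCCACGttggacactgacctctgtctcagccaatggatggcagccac
Txndc5 (chr13:38527915-38528164, minus strand, UPRE core): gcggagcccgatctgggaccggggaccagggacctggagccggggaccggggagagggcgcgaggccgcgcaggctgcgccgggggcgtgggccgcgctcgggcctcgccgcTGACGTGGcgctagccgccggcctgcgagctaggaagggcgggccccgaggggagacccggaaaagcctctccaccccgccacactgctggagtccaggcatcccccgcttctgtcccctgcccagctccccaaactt
Txndc11 (chr16:11134616-11134645, minus strand, UPRE core): tgaagtgtggcTGACGTGGagagtccgggt
Sec24d (chr3:123267459-123267488, plus strand, UPRE core): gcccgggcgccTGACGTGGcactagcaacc

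The 2 matches in Hsp90b1 begin 212 and 107 bases before the RefSeq start, and those in Herpud1, Txndc5, Txndc11 and Sec24d begin 52, 138, 102 and 26 bases before it. The stretch of Hsp90b1 stops where an annotated untranslated exon of GENCODE M21 begins. The matches of Txndc11 and Sec24d lie inside such exons of longer transcripts, so only 30 bases are shown for each. Txndc5 has 3 and Txndc11 has 2 promoters in the table, of which 1 each holds a match. The other list genes with a match were Derl3, Hspa5, Pdia6, Creld2 and Dnajc3, of which Derl3 and Creld2 did not pass the filter on low counts.

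The transcription factors divided. Of 15 list members that the rule does not read, 11 were tested, 3 were called higher and 2 lower, with a median of 0.17. All 5 calls were lost when the library labelled knockout 1, or that labelled knockout 2, was left out. With no count filter, 0 of 15 were called higher and 1 lower. Xbp1 (chr11:5520659-5525893, plus strand), which drives expansion of the ER, gave 0, 0, 10 and 168 UMIs in members and 17, 2, 18 and 168 in B nuclei, so the 133 members labelled knockout 2 held as many Xbp1 UMIs as its 2176 B nuclei. The log2 difference was 2.50 (SE 0.66, adjusted p = 0.00838). The members labelled wild type held no UMI, where 0.372 and 0.177 UMIs would be expected at the level of their B nuclei, so only the libraries labelled knockout give a direction. DESeq2 did not call it (2.17, adjusted p = 0.107), and with the library labelled knockout 1 or knockout 2 left out it did not pass the filter on low counts.

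Creb3l2, a membrane-bound factor of the secretory pathway, had 1, 3, 32 and 157 UMIs in members (log2 2.89, SE 0.56, adjusted p = 4.82e-05). It was higher in 3 of 4 libraries. Ell2, an elongation factor that favours the secreted form of the heavy chain mRNA, had 4, 5, 27 and 296 UMIs (1.93, SE 0.50, adjusted p = 0.0077) and was higher in all 4 libraries. Pou2f2 (-2.10, SE 0.52) and Ikzf3 (-1.62, SE 0.48), factors of B cell activation and differentiation, were lower in all 4. Ikzf3 was still detected in 33.3%, 60%, 19.6% and 31.6% of members.

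The canonical pair Prdm1 and Irf4 did not pass. Prdm1 had 1, 4, 3 and 54 UMIs (log2 1.41, SE 0.64, adjusted p = 0.305), with detection in 26.3% of members labelled knockout 2 against 3.49% of B nuclei. The shares were 5.88% against 3.88% in the library labelled knockout 1. Irf4 had 0, 0, 2 and 57 UMIs (0.90, SE 0.72, adjusted p = 0.726). Bhlha15, which encodes the secretory cell factor MIST1, gave 0, 0, 0 and 10 UMIs and did not pass the filter on low counts.

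Sensors of the unfolded protein response followed in part. Ern1, which encodes the kinase and nuclease IRE1α that splices Xbp1 mRNA, was called higher (log2 1.90, SE 0.56, adjusted p = 0.0278) with 1, 4, 12 and 106 UMIs, and was higher in 3 of 4 libraries. With Xbp1 it made 2 called of 8 tested in a list of 12, where 0 were lower and the median was 0.84. Atf6 (0.86, adjusted p = 0.483), Eif2ak3 (0.82, adjusted p = 0.53) and Atf4 (0.81, adjusted p = 0.708) lay above 0 without a call.

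Of 24 surface and survival genes, 13 were tested, 1 was called higher and 1 lower, and 4 lay above 0, with a median of -0.41 beside -0.21 for all genes. Over all genes tested 0.986% were called higher and 2.61% lower. Cd44, a hyaluronan receptor, was higher (log2 1.52, SE 0.47, adjusted p = 0.0406) and Fcrl5, an Fc receptor-like protein of B cells, lower (-2.16, SE 0.67, adjusted p = 0.0398). DESeq2 did not call Fcrl5. Slamf7 had 1, 0, 5 and 79 UMIs (1.40, adjusted p = 0.349), and Tnfrsf13b, the receptor TACI, 1, 0, 6 and 74 (0.31, adjusted p = 0.934). Tnfrsf17, the survival receptor BCMA, gave 8 UMIs, all in the library labelled knockout 2. The mucosal homing receptors Ccr9 and Ccr10 gave 46 and 6 UMIs in that library and 1, 0 and 4 against 0, 0 and 0 in the others.

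Most B cell identity genes were lower in plasma cell nuclei. Of 20 that the rule does not read, 18 were tested, 14 were called lower and 0 lay above 0, with a median of -2.77. The invariant chain Cd74 (log2 -2.70), the antigen-presenting chains H2-Aa (-4.09), H2-Ab1 (-2.87) and H2-Eb1 (-3.33), and their transactivator Ciita (-3.90) were called lower. H2-Aa was detected in 0%, 0%, 1.96% and 2.26% of members against 22.6%, 4.37%, 13.9% and 48.2% of B nuclei. Cd74, H2-Aa, H2-Ab1, H2-Eb1 and Ciita passed the filter on low counts only through the B nuclei, where they are high. Their calls are given as a description.

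Factors of the B cell program remained detectable in members. Bach2 was called lower (log2 -2.42, SE 0.49) but was present in 66.7%, 80%, 11.8% and 36.8% of members, against 57.0%, 57.4%, 57.5% and 82.9% of B nuclei. Members were the deeper in every library, so these shares do not compare levels. Ebf1 was lower as well (-1.95, SE 0.49) and was present in 44.4%, 20%, 39.2% and 55.6% of members, close to the 38.9%, 37.6%, 39.2% and 58.9% of nuclei that are neither plasma nor B. Ebf1 is also made by adipocyte progenitors. Cd79a (-1.91, adjusted p = 0.248), Ralgps2 (-1.38), Fcrl1 (-1.65) and Bcl6 (-0.69) did not pass.

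**Figure D3:**
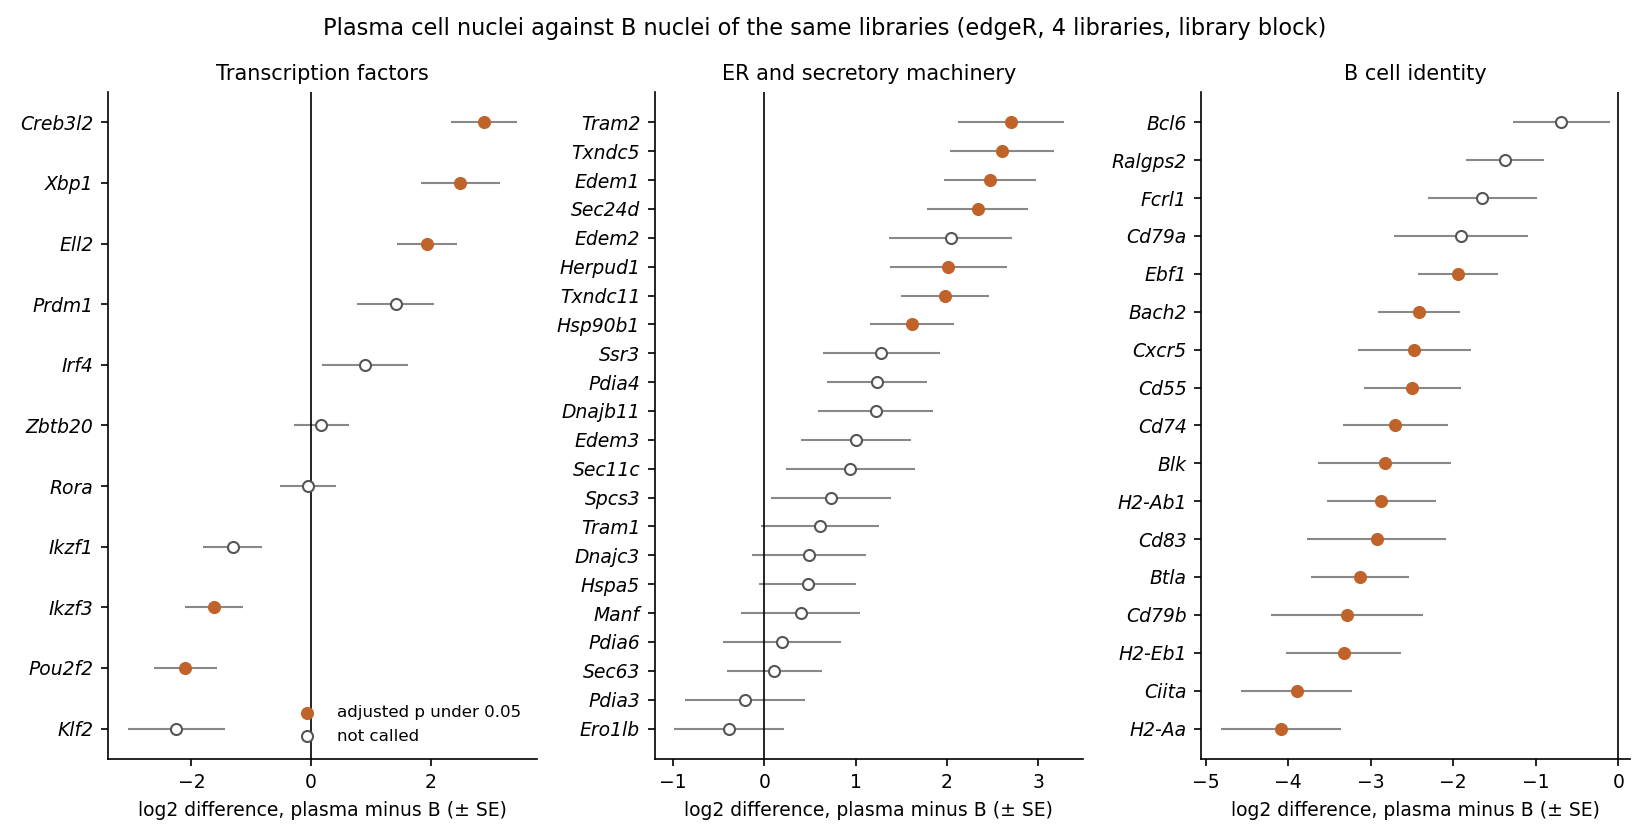
Log2 difference between plasma cell nuclei and B nuclei, with its standard error, for tested list members that the rule does not read (filled: adjusted p under 0.05 in edgeR over all 5782 genes; 4 libraries, library block). The B cell identity genes shown lie below 0 and 20 of the 22 ER and secretory genes lie above it.

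Outside the lists, the genes with the largest differences that had the same sign in each library included Plpp5, a lipid phosphatase (log2 3.53, SE 0.52, from 1, 1, 2 and 16 UMIs in members), and Trp53inp1, a p53 target of stress and autophagy (3.36, SE 0.60, from 4, 1, 12 and 308). The sign was read after library scaling. In the libraries labelled wild type it rested on very few UMIs, as in these genes, and says little there. Pim1, a survival kinase, was higher at 2.47 (SE 0.66), the growth factor gene Nrg2 at 2.69 (SE 0.54) and Znrf3, a ubiquitin ligase of Wnt receptors, at 2.19 (SE 0.49). Ypel2 (2.51), Ccdc134 (2.45), Pls1 (2.35), Rsph3a (2.26), Cpeb2 (2.25), Rexo2 (2.21), Igf2bp1 (2.21) and Sh2d4b (2.15) completed the 15 named higher genes with Tram2 and Edem1. Trp53inp1 was detected in 11.1%, 20%, 19.6% and 47.4% of members and in 3.46%, 0.546%, 1.48% and 5.51% of B nuclei. Plpp5 stood at 59.9, 59.8, 37.1 and 44.7 CPM in members against 2.62, 0, 2.08 and 4.95 in B nuclei. It passed the filter on low counts only through the members, where it is high, as did Ccdc134, Rexo2, Rsph3a and Sh2d4b. The calls of these genes are given as a description, and all were lost with no count filter.

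Of the 15 named lower genes, Ms4a4c, an MS4A family membrane protein, gave 0, 0, 0 and 1 UMIs in members and 103, 26, 57 and 832 in B nuclei (log2 -6.28, SE 1.12). Fcmr, the receptor for IgM, stood at -4.92 (SE 1.02), the peptide-loading chain H2-DMb2 at -4.33 (SE 0.95) and the inhibitory receptors Siglecg and Cd72 at -4.08 and -3.75. Zfp318, which is required for IgD expression, gave 0, 0, 0 and 31 UMIs against 533, 76, 254 and 3042 (-4.08, SE 0.62). The others were Serpinb1a (-4.44), Slamf1 (-4.43), Bin1 (-4.34), Tespa1 (-4.26), H2-Aa, Slc28a2 (-3.93), BE692007 (-3.90), Ciita and Stap1 (-3.77). In unscaled CPM, Serpinb1a in the library labelled wild type 1 lay the other way, at 59.9 in members against 45.9 in B nuclei. Slamf1 did so in that labelled wild type 2, at 59.8 against 58.1, and each of these member values is 1 UMI. Apart from Serpinb1a and Slamf1, the named lower genes passed the filter on low counts only through the B nuclei, where they are high. Their calls are given as a description.

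The count of calls against B nuclei depended on 2 libraries. Without the library labelled knockout 1 it was 50 of 5703 genes tested, and without knockout 2 it was 25 of 2638. In both cases 1 gene of the ER list was called, of 25 and of 8 tested. B cell identity genes called lower were then 7 of 18 and 1 of 12. Of 55 named or listed genes followed through the leave-outs, 5 stayed called in all 4 (BE692007, Ciita, Edem1, Stap1 and Zfp318) and 0 reversed. With both libraries labelled wild type left out, 389 of 8067 genes tested were called, 13 of 29 ER genes higher and 15 of 18 B cell identity genes lower. With at least 10 immunoglobulin UMIs required of each member, which leaves 3 libraries with members, 4 of 6308 genes tested were called. All 27 tested ER genes then lay above 0, with 1 called. Without members that carried 2 or more markers of another cell type, 67 of 3634 genes tested were called, with 4 of 18 ER genes higher and 5 of 17 B cell identity genes lower.

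Against all nuclei that were neither plasma nor B, 13 of 18423 genes were called, all higher (0.0706%), and 6 of them are read by the rule. The other 7 were Mzb1, an ER cochaperone of B lineage cells (log2 5.00, SE 0.80, adjusted p = 2.45e-06), Iglc2 (4.48, SE 0.97, adjusted p = 0.00758), the channel gene Cacna1h (3.31, SE 0.80), Nlrp14 (3.09, SE 0.71), and the predicted genes Gm12504 (3.95, SE 0.69), Gm30211 (4.18, SE 0.88) and Gm15890 (3.29, SE 0.70). Gm15890 overlaps Herpud1 on the opposite strand, and the use of strand in counting is unknown here. The predicted genes were chosen after their values were seen.

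The count against other nuclei moved with the scaling. The median over all genes was -0.59 with the main scaling and -0.21 with the alternative RLE factors, under which 145 genes were called, 84.1% of them higher. DESeq2 called 167, of which 58.7% were higher. No gene was called lower in edgeR with the main scaling, where 2185 genes of either direction had an unadjusted p under 0.05, while RLE called 23 and DESeq2 69 lower. Leaving out the libraries labelled wild type 2, knockout 1 and knockout 2 gave 43, 21 and 10 calls, and in the last case 7 of the 10 were lower and Mzb1 was not called. Of 36 tested ER genes, 31 lay above 0 with a median of 0.98, and 1 was called. Without the library labelled knockout 2, 15 of 36 lay above 0 with a median of -0.26, and 0 were called. The position of this list above 0 thus depended on that library. Mzb1 was detected in 22.2%, 0%, 5.88% and 13.5% of members against 0.223%, 0.340%, 0.176% and 0.324% of these other nuclei.

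Between labels, few genes were called within plasma cell nuclei, where 14 nuclei stand for the wild-type label. Of 484 genes tested within members, 1 was called (0.207%), in the lower direction. Cd80 (chr16:38455561-38496335, plus strand), the costimulatory ligand B7-1, gave 9, 5, 0 and 2 UMIs in 3, 1, 0 and 2 nuclei, a log2 difference of -6.19 (SE 0.81, adjusted p = 0.029) for the knockout label minus the wild-type label. Its level was 539, 299, 0 and 5.59 CPM. Cd80 thus passed the filter on low counts only through the libraries where it was high, so its call is given as a description. With members that carry markers of another type left out, 1 other gene was called, in the higher direction. In no leave-out did Cd80 pass the filter on low counts, and RLE scaling called 0 genes. No gene was called higher by edgeR, with 35 genes of either direction at an unadjusted p under 0.05. DESeq2 called 3, of which 66.7% were higher.

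Proliferation genes were detected in few nuclei. Mki67, the Ki-67 proliferation antigen, gave 19, 10, 4 and 28 UMIs in 3, 3, 1 and 5 members, or 1137, 598, 74.3 and 78.3 CPM. The groups did not overlap, and the difference between labels did not pass (log2 -3.43, SE 0.64, adjusted p = 0.106). All 5 such nuclei of the library labelled knockout 2 had 10 or more immunoglobulin UMIs. Top2a, a topoisomerase of dividing cells, gave 5, 3, 5 and 22 UMIs. Others of the cell cycle list were nearly absent, with 0 UMIs of Rrm2 in every library, 1 of Tyms and 2 of Mcm5, both in the library labelled knockout 2, and 0, 1, 1 and 1 of Birc5.

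In the library labelled knockout 2, plasma cell genes were detected more often in members with many immunoglobulin UMIs. Among members labelled knockout 2, 89 had 10 or more such UMIs and 44 had 3 to 9. Xbp1 was detected in 55.1% of the former and 13.6% of the latter, Prdm1 in 36.0% and 6.82%, Irf4 in 31.5% and 9.09%, Herpud1 in 67.4% and 11.4% and Txndc5 in 69.7% and 27.3%. Nuclei of 1 library are 1 sample, so these are descriptions with no test. Median depth was 2297 against 1569.5 UMIs, and Xbp1 stood at 680.2 against 65.4 CPM.

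Ebf1 ran the other way in the same library, with 49.4% against 68.2%, and Pax5 was detected in 4.49% against 13.6%. Bach2 hardly differed, at 37.1% and 36.4%. Slamf7 was detected in 43.8% and 20.5%, Derl3 in 16.9% and 2.27%, and Sdc1 in 14.6% and 9.09%. Among members labelled knockout 1, 12 had 10 or more and 39 had 3 to 9. Hsp90b1 was detected there in 83.3% and 38.5% and Xbp1 in 33.3% and 10.3%, and Ell2 in 50% and 28.2%. Other genes there did not follow: Edem1 was detected in 8.33% and 23.1%, Irf4 and Derl3 in 0% and 2.56%, Tnfrsf13b in 8.33% and 10.3%, and Eaf2, which the rule reads, in 16.7% and 43.6%. Ebf1 went the opposite way to the library labelled knockout 2, with 50% and 35.9%.

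**Figure D4:**
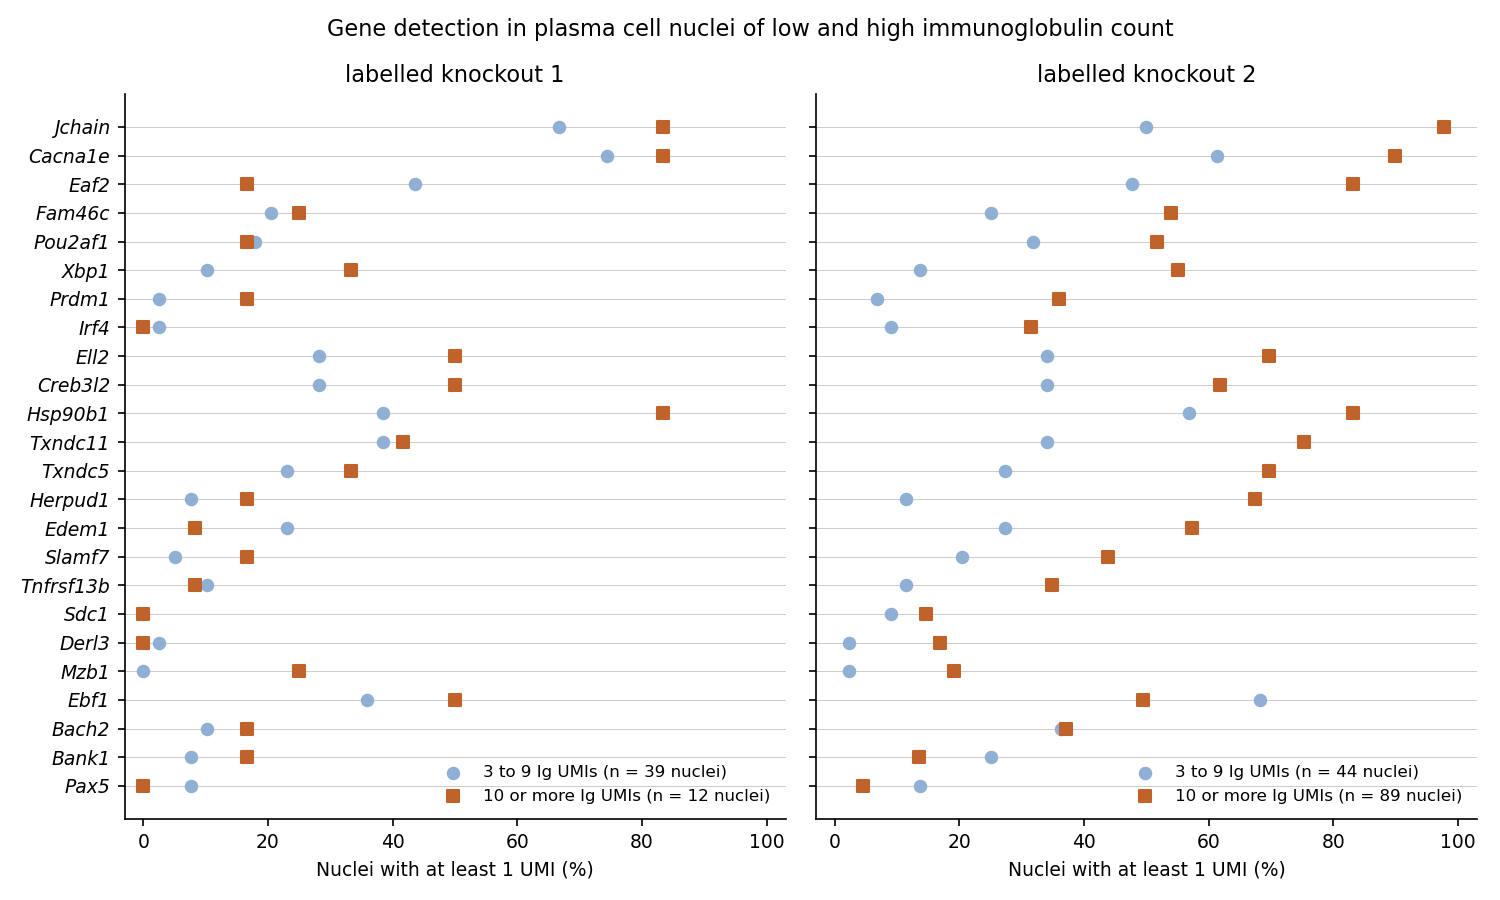
Percentage of plasma cell nuclei with at least 1 UMI of each gene, for members with 3 to 9 (circles) and 10 or more (squares) immunoglobulin UMIs in the libraries labelled knockout 1 and 2. For the library labelled knockout 2 Xbp1 is at 13.6% and 55.1% and Ebf1 at 68.2% and 49.4%.

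Markers of other cell types were present in part of the members. At least 2 markers of 1 of 8 other cell types were detected in 1, 3, 7 and 59 members, 70 of 198 in all. There, 28 members labelled knockout 2 carried adipocyte and 27 carried luminal epithelial markers, where luminal cells line the mammary ducts. Adipocyte markers reached 2 or more in 21.1% of its members, 13.1% of B nuclei and 27.4% of other nuclei, and luminal markers in 20.3%, 6.34% and 16.1%.

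Depth and the immunoglobulin count differed with these markers, and not alike in the libraries. Among nuclei labelled knockout 2, the 59 members with 2 or more markers of another type had a median of 3035 UMIs and 15 immunoglobulin UMIs, against 1680 and 32 in the other 74. Of its members with 10 or more immunoglobulin UMIs 36.0% carried such markers, and of those with 3 to 9, 61.4%. For the library labelled knockout 1 the 7 such members had a median of 8 immunoglobulin UMIs against 5 in the other 44, and the shares were 16.7% and 12.8%. Summed adipocyte markers ran to 3.59, 1.20, 5.20 and 15.7 per 10000 UMIs in members and summed luminal markers to 0.599, 7.17, 4.09 and 11.7. Of 6 adipocyte markers, 4, 4, 0 and 0 were at 0 in the members, and of 6 luminal markers 5, 3, 2 and 0. The part of doublets or free RNA in the results was not tested. Without these members the mean share differed by 0.376 percentage points between labels, against 0.565 with them. Leaving them out does not take free RNA out of the remaining nuclei.

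The remaining marker lists, dendritic markers apart, were less frequent in the members of the library labelled knockout 2 than in its other nuclei, without a test. T or NK markers reached 2 or more in 3.76% against 14.4%, progenitor or fibroblast markers in 6.02% against 15.4%, macrophage markers in 1.50% against 5.02% and vascular endothelial markers in 1.50% against 4.49%. Contractile or myoepithelial markers were at 3.01% against 4.83% and dendritic markers at 1.50% against 1.07%. Among members labelled wild type 1, 33 UMIs of contractile markers gave 19.8 per 10000, with Acta2 at 15 UMIs in 1 nucleus.

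**Figure D5:**
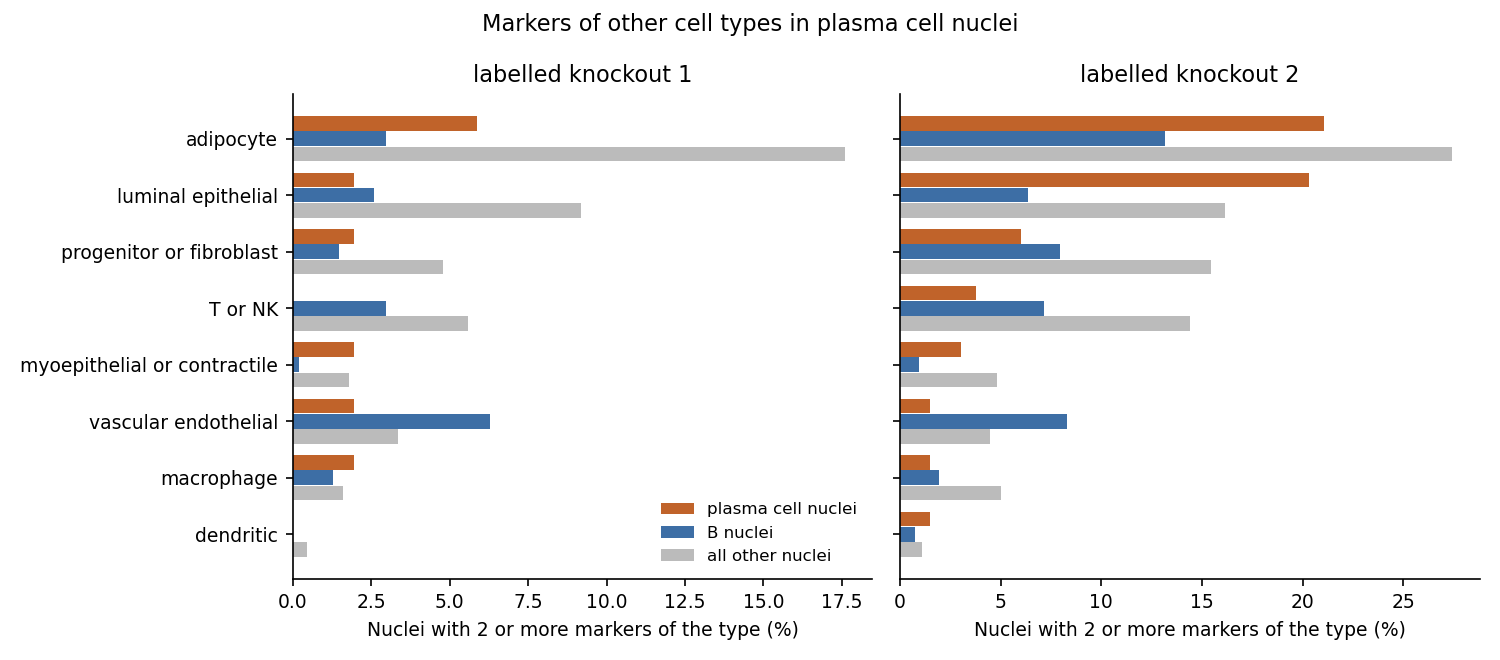
Percentage of plasma cell nuclei, B nuclei and all other nuclei with 2 or more markers of each of 8 other cell types in the libraries labelled knockout 1 and 2. Luminal epithelial markers of the library labelled knockout 2 are at 20.3%, 6.34% and 16.1% in the 3 classes.

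Genes of the plasma cell niche and of IgA transport were scarce. Of 13 listed, 4 were tested against B nuclei and 0 were called by edgeR or DESeq2, with 1 at an unadjusted edgeR p under 0.05. Tnfsf13, which encodes the survival factor APRIL, had 0 UMIs in every class. Tnfsf13b, which encodes BAFF, was detected in 1.45%, 1.19%, 0.921% and 2.05% of nuclei that were neither plasma nor B, and Pigr, the receptor that carries IgA across epithelium, in 0.914%, 0.880%, 1.26% and 1.30%. Ccl28, a chemokine that draws IgA-secreting cells to the mammary gland, was detected in 0.488%, 0.664%, 0.895% and 1.10%. These shares are not corrected for depth: in CPM, Pigr stood at 8.43, 9.62, 15.5 and 7.96 and Ccl28 at 4.45, 6.77, 9.85 and 7.10, so the library labelled knockout 2 was the lowest of the 4 for Pigr.

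Of 10 amino acid and autophagy genes, 6 were tested against B nuclei, and 0 were called by edgeR or DESeq2 or had an unadjusted edgeR p under 0.05. Of 12 cell cycle genes 2 were tested, and 0 passed by the same measures, with Mki67 at 0.83 (SE 0.51, adjusted p = 0.541) and Top2a at 0.49 (SE 0.59). The constant genes that the rule does not read had 0 called of 2 tested against B nuclei, where Ighm stood at -1.41 (SE 0.57, adjusted p = 0.206) and Iglc2 did not pass (adjusted p = 0.561).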

How the data were processed

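Raw UMI counts per gene and barcode, as the authors deposited them, were read for 4 libraries of 53715 genes; the lowest total per barcode was 500. Nuclei were captured with a Singleron kit per the labels' protocols, and Seurat 4.3.0 is named in the submitters' processing notes with GRCm38. An aligner is not given in the sources used. Nuclei, B nuclei and other classes were picked by count rules in Python 3.11.15, with no clustering and no doublet removal. Shares carry exact binomial 95% intervals.

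Counts were summed per library and class and tested with edgeR 4.0.16 (filterByExpr, TMM, robust quasi-likelihood F test, two-sided, Benjamini-Hochberg over all genes tested, threshold 0.05). Adjusted p-values come from it unless DESeq2 1.42.0 is named. Comparisons between classes had the library as a block, and that between labels had none. Values in CPM in the text are unscaled. On simulated data, folds of log2 2 and 3 were recovered in 58.3% and 92.7% of genes against B nuclei, 10.6% and 46.9% against other nuclei, and 90.6% and 100% between labels. The simulation gave all genes the same fixed spread and took mean levels pooled over the libraries. It was not matched to the spread of the real sums, so these shares do not show what the real fits could recover. Between labels, Mki67 at log2 -3.43 was not called (adjusted p = 0.106).

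Summed depth of members was 16698, 16731, 53836 and 357608 UMIs. Titles name separate mice, and p-values measure the spread between these 4 libraries. Members and gene lists were chosen with earlier results of these data known. Named genes are list members plus, per comparison, the 15 largest called differences in each direction with the same sign in every library (not overlapping, between labels), without genes the rule reads, predicted genes and variable genes. Of 70 named or called list genes checked, 14 overlap another gene on their strand and 28 on the opposite strand (GENCODE M21), and their counts are uncertain to that extent. Alternatives covered scaling, tool, count filter, member rule, each library left out and both libraries labelled wild type left out, the last added after the data were seen. Promoter sequences are from RefSeq. The values of 1 B cell identity gene are not reported here.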

Additional observations from a re-analysis of the deposited data

Results flagged for a closer look

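For 2 genes the fitted libraries fell on different sides of the reference by label, and the difference was not tested. Xbp1, compared with B nuclei, had a log2 difference of 2.50, with 10 and 168 UMIs in members under the knockout label and 0 in both libraries under the wild-type label. At the level of the B nuclei, 0.372 and 0.177 UMIs would be expected there, so the 0 counts give no direction. Iglc2, compared with all other nuclei, had a log2 difference of 4.48, with 7 and 102 UMIs under the knockout label and again 0 in both libraries under the wild-type label. At the level of the other nuclei, 0.0485 and 0.0457 UMIs would be expected there, so these 0 counts give no direction either.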

How the results depend on the processing

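The difference in mean share between labels kept its direction in every alternative, from 0.292 percentage points (immunoglobulin at least 1% of UMIs) to 0.722 (at least 1000 UMIs and 500 genes), with p = 0.333 where tested by the exact permutation test, and from 0.359 to 0.771 with a library left out. Between labels the 1 called gene became 0 with RLE scaling, 0 with no count filter, 0 with at least 10 immunoglobulin UMIs, 3 with DESeq2 and 0 to 36 with a library left out, while 1 gene, higher and not the same one, was called without members that carry markers of another type. Against B nuclei the 208 calls became 84 with no count filter, 4 with at least 10 immunoglobulin UMIs, 67 without members that carry markers of another type, and 25 to 261 with a library left out. With no count filter 11 genes were called higher, against 57 in the main fit. Under that setting 34 of the 55 named or listed genes lost their call. With both libraries labelled wild type left out the calls were 389, and 35 when 10 immunoglobulin UMIs were also required. Against other nuclei the 13 calls became 145 (RLE), 167 (DESeq2), 135 (no filter), 130 (at least 10 immunoglobulin UMIs), 7 (immunoglobulin genes left out of the test), 10 to 43 (a library left out), and 72 and 41 in the libraries labelled knockout alone without and with that minimum. The cause was not tested, beyond there being fewer libraries or members by construction.

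With the replicate number as a block, 2 genes were called between labels. Nothing in the labels pairs the samples, which share only a number. Deviations of same-numbered libraries from their label mean correlated at -0.297 over 484 genes. With 2 libraries per label the deviations mirror each other, so this is 1 value for both numbers and cannot decide on pairing. Without the library block there were 211 calls against B nuclei and 271 against other nuclei. Depth limits the members labelled wild type to genes above about 179.7 and 179.3 CPM.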
